A study of Mus musculus with 6 samples.

Results

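H3K79me2 enrichment was described over the 10 genes of the Myc network (Myc, Mycn, Mycl, Max, Mga, Mnt, Mxi1, Mxd1, Mxd3 and Mxd4) in N2a, a mouse neuroblastoma cell line in common use. These genes were chosen by name, and each was represented by its gene body plus 3 kb upstream of its start in GENCODE M21 on the mouse build mm10, out of 55536 annotated genes, 22028 of them protein-coding. The data were chromatin immunoprecipitation (ChIP-seq) peak lists of 4 libraries. N2a cells transfected with a control short hairpin plasmid (CTR, 2 libraries) were set against N2a cells transfected with a short hairpin plasmid targeting Npm1 (NPM1 KD, 2 libraries). Cells of both groups were collected after 72 h, at 3 days in vitro. The study used 1 hairpin against Npm1. The methods state puromycin selection for the NPM1 KD experiments, and for ChIP-qPCR they list the control hairpin among the selected cells too. The ChIP-seq section does not mention selection. That section ties each replicate to its own cell passage and transfection batch, so the replicates were separate cultures of the same line.

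MYC, MYCN and MYCL are basic helix-loop-helix leucine zipper transcription factors that bind DNA as dimers with MAX. MNT and the MXD proteins (MXI1, MXD1, MXD3 and MXD4) also pair with MAX and recruit SIN3 corepressors to the same kind of site, the E-box, while MGA pairs with MAX within a Polycomb repressive complex. MYCN is the family member known for its amplification in neuroblastoma, and MYC and MYCN can replace each other in many cells. H3K79me2, the dimethylation of lysine 79 of histone H3, is deposited by DOT1L on the transcribed part of active genes, mostly from the start into the first introns.

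Of the 10 genes, 9 carried an H3K79me2 peak in every library and Mycl carried none. The lists held 73801 to 88348 narrow peaks and 34845 to 48764 broad peaks per library. Read totals were not in the lists. As a stand-in for depth, the background pileup behind the narrow folds was worked out, at 11.9 and 7.65 in CTR 1 and 2 and 8.99 and 11.8 in NPM1 KD 1 and 2, so each group held 1 deeper and 1 shallower library. The 7 sympathoadrenal and neuronal marker genes reported here carried broad peaks, whereas of 6 markers of other cells only Pecam1 did, over at most 0.248% of its window. The mark does not measure NPM1 itself, and the knockdown was not checked here.

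2 quantities were taken per gene. The covered share is the percentage of the gene window under broad peaks, a measure of how far the mark spreads. The summit fold is the pileup at the highest narrow summit in the window over the library's background, a measure of height. The same small constant is added to pileup and background before the ratio. Folds are thus relative within each library and do not measure a global change of the mark. The methods describe no spike-in. Immunoblots in the paper showed raised H3K79me2 in the NPM1 KD replicates used for ChIP-seq, so a lower fold at a gene is not a measured loss of the mark. Promoter sequences are shown first, for the marked Mycn and the unmarked Mycl, and for Max, Mnt and Mxd4, whose windows hold the canonical E-box. They are RefSeq windows on GRCm38.p6 that run from 250 bases before to 50 bases after a transcription start, 5′ to 3′ on the strand of the gene, with the motif CACGTG in capitals. RefSeq windows were at hand for 9 of the 10 genes, all but Myc.
Mycn (chr12:12941787-12942086, minus strand): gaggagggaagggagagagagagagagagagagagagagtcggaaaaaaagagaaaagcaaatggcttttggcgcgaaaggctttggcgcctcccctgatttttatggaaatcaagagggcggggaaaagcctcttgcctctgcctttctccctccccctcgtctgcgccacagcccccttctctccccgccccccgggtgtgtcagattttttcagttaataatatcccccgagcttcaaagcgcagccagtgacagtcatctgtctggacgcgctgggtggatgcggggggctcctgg
Mycl (chr4:122995681-122995980, plus strand): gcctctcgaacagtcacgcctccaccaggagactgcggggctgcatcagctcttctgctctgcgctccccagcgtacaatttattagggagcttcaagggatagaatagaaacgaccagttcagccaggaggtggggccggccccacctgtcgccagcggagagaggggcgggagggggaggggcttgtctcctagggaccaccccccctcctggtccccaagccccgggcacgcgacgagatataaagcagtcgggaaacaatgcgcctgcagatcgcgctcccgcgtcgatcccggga
Max (chr12:76962199-76962498, minus strand): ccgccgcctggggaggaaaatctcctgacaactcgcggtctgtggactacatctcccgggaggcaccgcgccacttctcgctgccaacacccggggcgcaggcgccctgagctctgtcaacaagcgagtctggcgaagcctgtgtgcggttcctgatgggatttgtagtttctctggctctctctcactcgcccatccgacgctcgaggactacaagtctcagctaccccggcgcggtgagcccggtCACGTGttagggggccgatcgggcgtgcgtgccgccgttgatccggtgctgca
Mnt (chr11:74830674-74830973, plus strand): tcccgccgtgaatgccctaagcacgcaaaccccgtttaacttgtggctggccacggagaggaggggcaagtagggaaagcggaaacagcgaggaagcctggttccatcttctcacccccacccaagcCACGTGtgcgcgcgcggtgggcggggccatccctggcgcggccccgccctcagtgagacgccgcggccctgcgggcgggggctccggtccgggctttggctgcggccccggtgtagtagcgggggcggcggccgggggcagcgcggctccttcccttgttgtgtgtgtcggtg
Mxd4 (chr5:34187661-34187960, minus strand): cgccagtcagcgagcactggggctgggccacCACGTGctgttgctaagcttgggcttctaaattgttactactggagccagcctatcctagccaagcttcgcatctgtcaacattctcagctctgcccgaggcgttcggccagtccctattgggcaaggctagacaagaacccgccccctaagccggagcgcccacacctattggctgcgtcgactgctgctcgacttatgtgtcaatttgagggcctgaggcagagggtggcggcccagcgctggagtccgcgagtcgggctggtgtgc

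The motif CACGTG reads the same on both strands. It was in 3 of the 11 promoter windows of the 9 genes and in 7.15% of all 32851 promoters. A match is a description of the letters, not of a bound site. In Max the motif began at base 248 of the window, in Mnt at base 128 and in Mxd4 at base 32. The Mycl window was rich in CG dinucleotides (22, against a median of 7 over all promoters), and broad peaks covered 0% of it in every library. The Mycn window held 14 CG dinucleotides, and broad peaks covered 80.7% and 37.7% of it in CTR 1 and 2 and 94.3% and 100% in NPM1 KD 1 and 2. Both NPM1 KD libraries were thus higher here, with CTR 2 the lowest.

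Broad peaks also reached the Max window (64.0%, 41.3%, 70.0% and 57.7% in CTR 1, CTR 2, NPM1 KD 1 and NPM1 KD 2), with overlapping groups. They touched at most 5.33% of the Mnt window and 0% of the Mxd4 window in all libraries. The E-box window of Mnt thus lay almost wholly before the mark, and that of Mxd4 before its main domain.

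**Figure D1:**
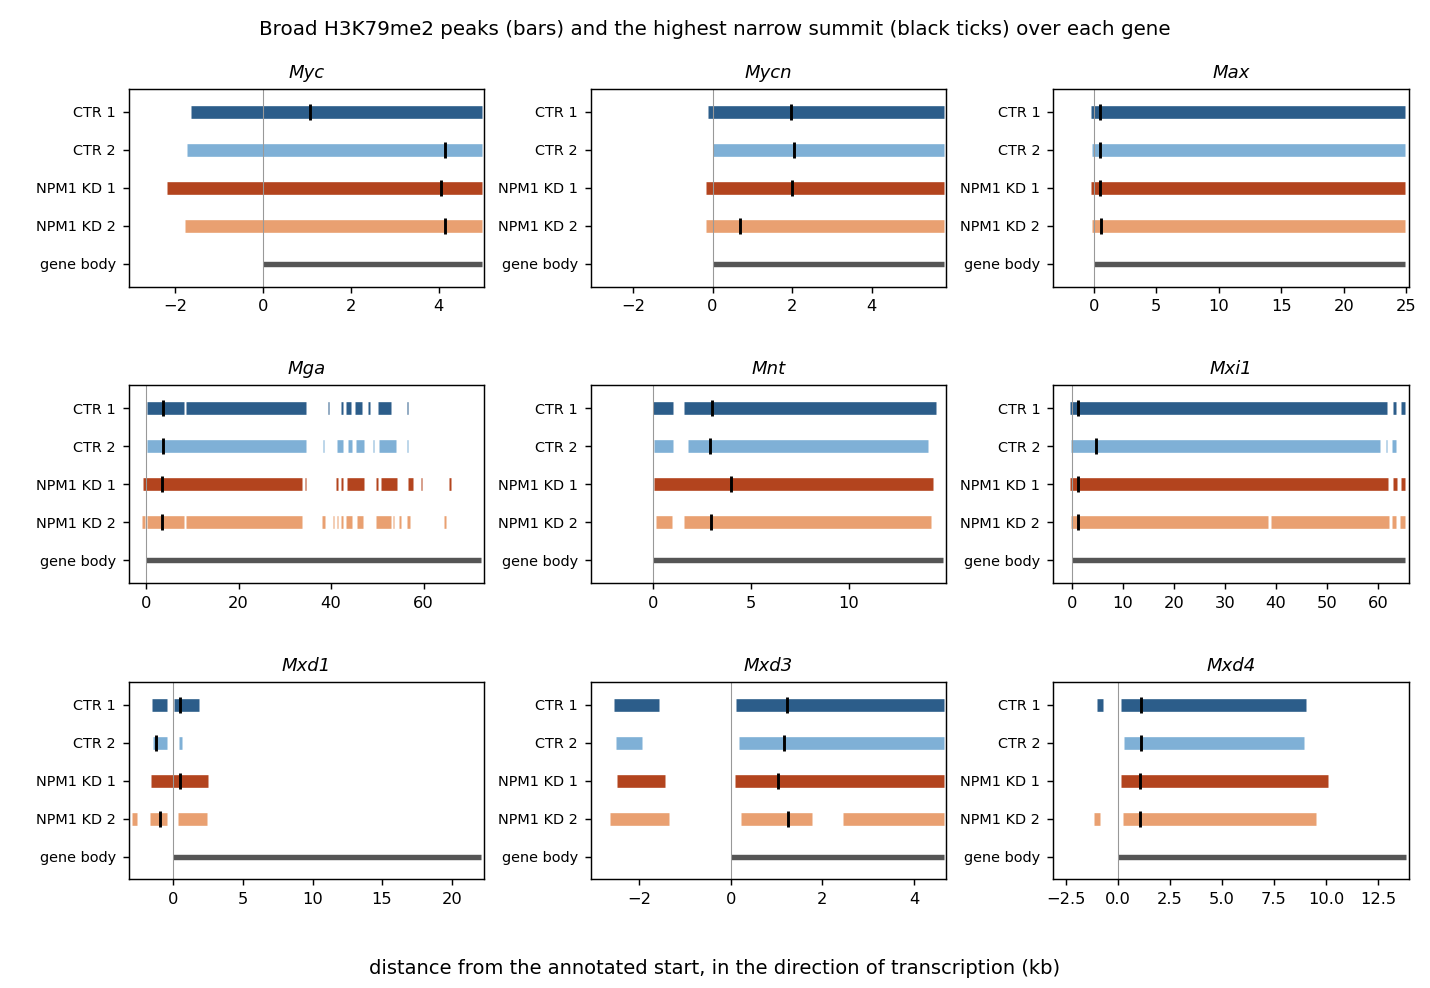
Broad H3K79me2 peaks within the window of each of the 9 marked genes (bars) and the highest narrow summit (black ticks) in the 4 libraries, by distance from the annotated start in kb, with the gene body in grey. Myc, Mycn, Max and Mxi1 were covered over nearly the whole body, whereas the mark stopped or broke up partway in Mga and Mxd4 and lay only around the start in Mxd1.

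The highest summits lay mostly inside the genes. Of the 36 highest summits (9 genes in 4 libraries), 23 lay in introns, 6 in coding exons, 5 in exons outside any annotated coding sequence or UTR and 2 upstream of the start, both at Mxd1. Averaged over the 4 libraries, the covered share ran from 92.4% in Mxi1, 89.9% in Max and 85.4% in Myc to 11.7% in Mxd1. The median over the 9 marked genes was 72.1% and 65.8% in CTR 1 and 2 and 73.2% and 68.0% in NPM1 KD 1 and 2. Over all 11863 protein-coding genes with a broad peak it was 46.4%, 42.9%, 51.1% and 47.9% in the same order.

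Among the MYC genes, Myc and Mycn were marked over their whole bodies and Mycl was bare. Myc (ENSMUSG00000022346.15, chr15:61985391-61990374, plus strand) carried 1 broad domain per library, 10500 to 12336 bp long, which began between -2189 and -1632 bp from the annotated start and ran past the gene end. Broad peaks covered 82.9% and 83.9% of the Myc window in CTR 1 and 2 and 89.8% and 84.7% in NPM1 KD 1 and 2, so both NPM1 KD libraries exceeded both CTR libraries. The difference between the means was 3.88 percentage points (CTR 83.4 ± 0.762, NPM1 KD 87.3 ± 3.61, SD, n = 2), and most of it came from NPM1 KD 1. The gene body itself was at 100% in all libraries, so the whole difference lay in the 3 kb upstream (54.4%, 57.3%, 73.0% and 59.4% covered).

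The height of the Myc domain went the other way. Its summit fold was 35.5 and 36.0 in CTR 1 and 2 and 29.3 and 27.4 in NPM1 KD 1 and 2, with means of 35.8 ± 0.298 and 28.4 ± 1.38 (SD, n = 2). Both NPM1 KD libraries were lower than both CTR libraries, and the groups did not overlap. A two-sided exact permutation test gave p = 0.333, which no gene can go below with 2 against 2 libraries. The average fold of the whole broad domain, which ran past the end of the Myc window, had the same order, with 13.95, 15.4, 11.1 and 10.1. The Myc summit lay in a coding exon, 4046 to 4149 bp from the start, in 3 libraries, and 1073 bp from the start, in an intron, in CTR 1.

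Mycn (ENSMUSG00000037169.15, chr12:12936093-12941914, minus strand), the neuroblastoma paralogue, carried 1 broad domain of 6379 to 6804 bp that began between -175 and 15 bp from the start. The covered share was 67.3% and 65.8% in CTR 1 and 2 and 67.7% and 68.0% in NPM1 KD 1 and 2. Both NPM1 KD libraries were above both CTR libraries, by 1.31 percentage points between the means, and the gain lay in the stretch upstream of the start, where 3.80%, 0%, 5.17% and 5.83% of the 3 kb were covered. The Mycn summit fold was 31.5 and 30.9 in CTR 1 and 2 and 27.7 and 20.03 in NPM1 KD 1 and 2. Here too both NPM1 KD libraries were lower, and NPM1 KD 2 stood well below the other libraries. Its highest summit also lay elsewhere, 685 bp from the start in an exon outside coding sequence. In CTR 1, CTR 2 and NPM1 KD 1 the summit lay in a coding exon, 1964, 2057 and 1998 bp from the start. The 95% counting interval of NPM1 KD 2 (17.7 to 22.6) lay below that of CTR 2 (27.3 to 34.8), while that of NPM1 KD 1 (24.6 to 31.2) overlapped it. These intervals cover counting error at the summit only. The average fold of the Mycn domain had the same order of groups, with 16.7, 16.7, 13.6 and 11.6.

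Mycl (ENSMUSG00000028654.13, chr4:122995652-123002485, plus strand), the third paralogue, had no broad and no narrow peak in its window in any library. The nearest peak lay 13930 to 14066 bp beyond the gene end, beside Trit1, in all 4 libraries and both kinds of list. Of the protein-coding genes, 44.9% had no peak of either kind in any library, so an unmarked gene was common. A gene without a called peak may still hold signal below the calling threshold.

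**Figure D2:**
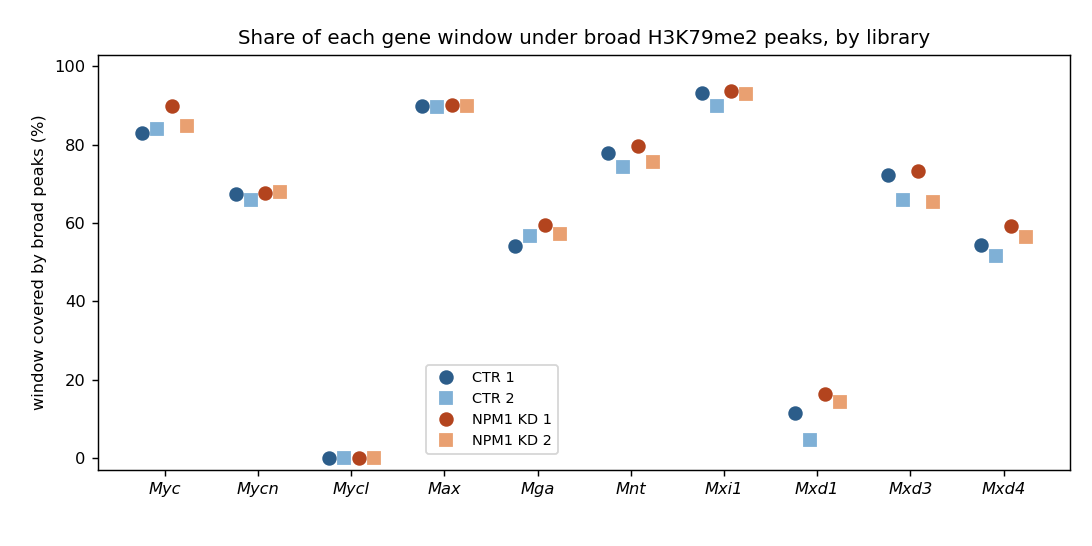
Percentage of each gene window (body plus 3 kb upstream) under broad H3K79me2 peaks in CTR 1, CTR 2, NPM1 KD 1 and NPM1 KD 2, 1 point per library. Mycl sits at 0 in all libraries and Mxd1 between 4.68% and 16.4%, and the other 8 genes lie at 51.6% or more.

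Max (ENSMUSG00000059436.13, chr12:76937269-76962201, minus strand), the shared dimerization partner, was covered almost identically in all libraries. Its covered share was 89.9% and 89.7% in CTR 1 and 2 and 90.0% and 89.9% in NPM1 KD 1 and 2, under a domain of 26014 to 28187 bp. Its summit fold was 36.9, 29.7, 33.9 and 23.0 in the same order, 486 to 580 bp from the start in an intron. The groups overlapped in both quantities, and the CTR libraries alone spanned the CTR values of Myc and Mycn.

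Mga (ENSMUSG00000033943.15, chr2:119897228-119969581, plus strand) encodes the large MAX partner with a T-box domain. Peaks covered 54.1% and 56.7% of its window in CTR 1 and 2 and 59.6% and 57.1% in NPM1 KD 1 and 2, in 8 to 16 separate broad peaks. The NPM1 KD libraries were above the CTR libraries, by 0.437 percentage points between the libraries numbered 2 and 5.52 between those numbered 1, but with broad peaks of −log10 q of at least 5 alone the difference between the means turned to -0.659. In NPM1 KD 1 and NPM1 KD 2, 20.1% and 18.2% of the 3 kb upstream of Mga were covered, against 0% in both CTR libraries. In NPM1 KD 1 this was the main broad domain reaching to -603 bp, without a narrow peak upstream. In NPM1 KD 2 it was a separate weak broad peak from -829 to -283 bp, with a fold of 1.94. With lists cut to equal size the covered shares of Mga overlapped between the groups. The summit fold of Mga was 21.4, 24.1, 22.2 and 21.9, with overlapping groups, and the summit lay 3531 to 3643 bp from the start in each library.

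Mnt (ENSMUSG00000000282.12, chr11:74830920-74845725, plus strand) encodes the MAX-binding repressor expressed in most cells. Its covered share was 78.0% and 74.3% in CTR 1 and 2 and 79.7% and 75.5% in NPM1 KD 1 and 2, with overlapping groups. In CTR 1, CTR 2 and NPM1 KD 2 a gap separated a short peak that ended 992 to 1041 bp after the start from the long domain that began at 1570 to 1786 bp, and in NPM1 KD 1 a continuous domain ran across it. The Mnt summit fold was 21.4 and 20.5 in CTR 1 and 2 and 18.6 and 15.7 in NPM1 KD 1 and 2. Both NPM1 KD libraries were below both CTR libraries, although the counting intervals of CTR 2 (17.6 to 23.7) and NPM1 KD 1 (16.1 to 21.5) overlapped. The body of Mettl16 reaches into the upstream part of this window.

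Mxi1 (ENSMUSG00000025025.14, chr19:53310518-53375810, plus strand), an MXD-family repressor with several RefSeq starts, was the most fully covered gene of the set. The covered share was 93.3% and 89.8% in CTR 1 and 2 and 93.8% and 92.9% in NPM1 KD 1 and 2. Its summit fold was 23.2, 23.2, 23.6 and 18.2 in the same order. Only NPM1 KD 2 stood apart in height, so the groups overlapped. The domain around the summit was 60397 to 62331 bp long in 3 libraries and 38590 bp in NPM1 KD 2, where a short break split it. Gm10197 and AC133451.2, on the opposite strand, overlap this window.

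Mxd1 (ENSMUSG00000001156.9, chr6:86647042-86669161, minus strand), a MAX partner known for its rise during differentiation, was the most weakly marked gene with a peak. Broad peaks covered 11.6% and 4.68% of its window in CTR 1 and 2 and 16.4% and 14.3% in NPM1 KD 1 and 2. Both NPM1 KD libraries were above both CTR libraries, with means of 15.3 ± 1.44% and 8.12 ± 4.86% (SD, n = 2). All of this lay upstream and within the first 5 kb, and the rest of the body was at 0% in every library. The summit fold was 3.41, 3.47, 4.11 and 3.44 in CTR 1, CTR 2, NPM1 KD 1 and NPM1 KD 2, on summit pileups of 29 to 43 fragments. As deposited these folds overlapped between the groups, and only after centring on the median gene of each library did both NPM1 KD libraries lie above. The highest summit was in an intron, 434 and 468 bp from the start, in the libraries numbered 1, and upstream, at -936 and -1269 bp, in those numbered 2.

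Mxd3 (ENSMUSG00000021485.14, chr13:55325168-55329823, minus strand), the family member linked to proliferating cells, had a covered share of 72.1% and 65.8% in CTR 1 and 2 and 73.2% and 65.5% in NPM1 KD 1 and 2. The values followed the library number and not the group. The summit fold was 7.68, 7.05, 7.01 and 6.26, with both NPM1 KD libraries below, and all 4 counting intervals overlapped one another. Taken from the broad lists in place of the narrow ones, the centred log2 difference in Mxd3 turned from -0.09 to 0.0828. In 3 libraries the domain around this summit, 11565 to 12764 bp long, also ran over Prelid1, Rab24 and Nsd1, while in NPM1 KD 2 it was a separate peak of 1533 bp. The window is therefore shared with Prelid1, and its mark cannot be assigned to Mxd3 alone. A higher narrow peak ran over the end of the Mxd3 body, with folds of 24.4 and 23.4 in CTR 1 and 2 and 22.8 and 19.6 in NPM1 KD 1 and 2. Its summit lay outside the window, so it did not enter the summit fold.

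Mxd4 (ENSMUSG00000037235.13, chr5:34173883-34187720, minus strand), a further MAX partner of the repressor class, was the gene in which both quantities were higher in NPM1 KD as deposited. Its covered share was 54.4% and 51.6% in CTR 1 and 2 and 59.2% and 56.5% in NPM1 KD 1 and 2, and the difference was 4.75 percentage points between the libraries numbered 1 and 4.86 between those numbered 2. The main domain began 121 to 268 bp after the start and ended farther into the gene in NPM1 KD, at 10083 and 9498 bp against 9019 and 8962 bp in CTR. A short separate peak lay upstream of the promoter window in 1 library of each group, from -1016 to -743 bp in CTR 1 and from -1144 to -885 bp in NPM1 KD 2. The summit fold was 6.98 and 6.13 in CTR 1 and 2 and 9.91 and 7.82 in NPM1 KD 1 and 2, with means of 6.56 ± 0.605 and 8.87 ± 1.48 (SD, n = 2). Both NPM1 KD libraries were above both CTR libraries. The counting intervals of CTR 1 (5.62 to 8.58) and NPM1 KD 2 (6.37 to 9.51) overlapped. The summit lay in an intron 1030 to 1109 bp from the start in all libraries, and the antisense gene Gm42846 overlaps the window.

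**Figure D3:**
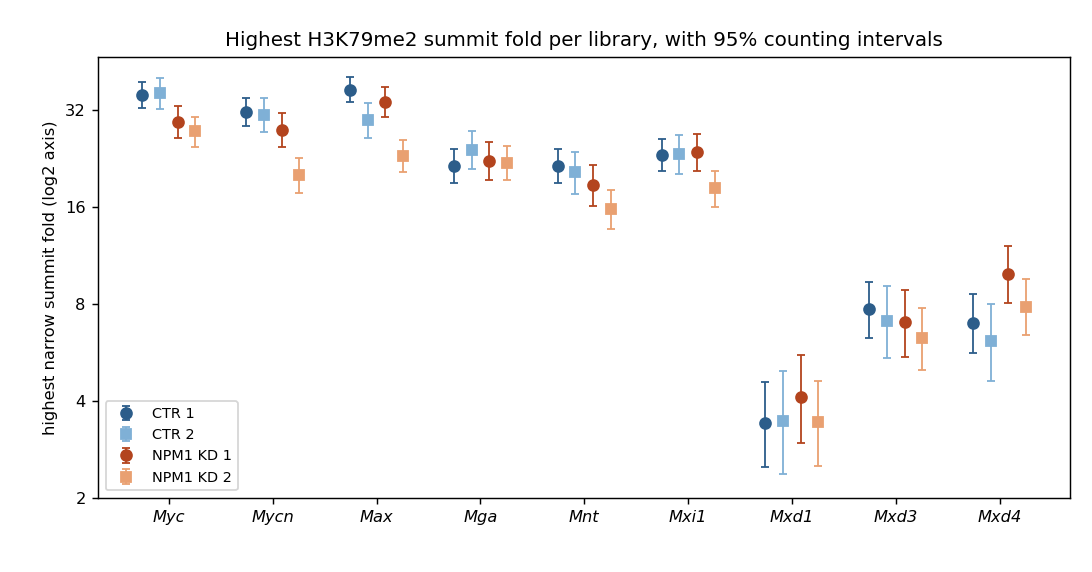
Highest narrow summit fold of each marked gene on a log2 axis in CTR 1, CTR 2, NPM1 KD 1 and NPM1 KD 2, with 95% Poisson counting intervals of the summit pileup as bars. The 2 NPM1 KD points lie below the CTR points in Myc, Mycn, Mnt and Mxd3 and above them in Mxd4.

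Across the 9 marked genes the direction differed between extent and height. In covered length, 5 (Myc, Mycn, Mga, Mxd1 and Mxd4) had both NPM1 KD libraries above both CTR libraries and 4 (Max, Mnt, Mxi1 and Mxd3) overlapped. Of all 11863 genes tested, 46.7% were above, so 5 of 9 was near the background. The count below was 0 of 9, against 2.89% of all genes. The median difference in log2(covered bp + 1000) was 0.03 over the 9 genes and 0.08 over all genes tested.

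Summit folds were compared as log2 values centred on the median gene of each library, since that median was 13.97 and 13.4 in CTR 1 and 2 and 14.1 and 12.1 in NPM1 KD 1 and 2. Centring also removes any shift shared by all genes. After centring, 4 of the 9 genes (Myc, Mycn, Mnt and Mxd3) had both NPM1 KD libraries below both CTR libraries, against 22.2% of the 10895 genes tested. For 2 (Mxd1 and Mxd4) both were above, against 18.2%, and 3 (Max, Mga and Mxi1) overlapped. The median difference was -0.10 over the 9 genes and -0.02 over all genes tested. Expressed as a difference, NPM1 KD minus CTR was -0.27 in Myc, -0.34 in Mycn, -0.23 in Mnt and -0.09 in Mxd3, 0.49 in Mxd4 and 0.19 in Mxd1, all on the centred log2 scale.

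The difference varied with the level of the fold over all genes, and the Myc network genes were read against genes of like level. In the quintile with the highest mean fold (2179 genes, mean fold from 23.5 to 73.3), which held Myc, Mycn and Max, 49.5% of genes had both NPM1 KD libraries below both CTR libraries, and the median difference was -0.16. The 2 of 3 genes in this quintile that were below, Myc and Mycn, thus stood among many others of the same level. In the second lowest quintile (mean fold from 6.00 to 10.7), which held Mxd3 and Mxd4, 26.6% were above, as Mxd4 was, and 11.2% were below, as Mxd3 was. Its median difference was 0.06, against 0.49 in Mxd4. In the lowest quintile, which held Mxd1, 36.9% were above, as Mxd1 was. In the second highest, which held Mga, Mnt and Mxi1, 26.3% were below, as Mnt alone of the 3 was.

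**Figure D4:**
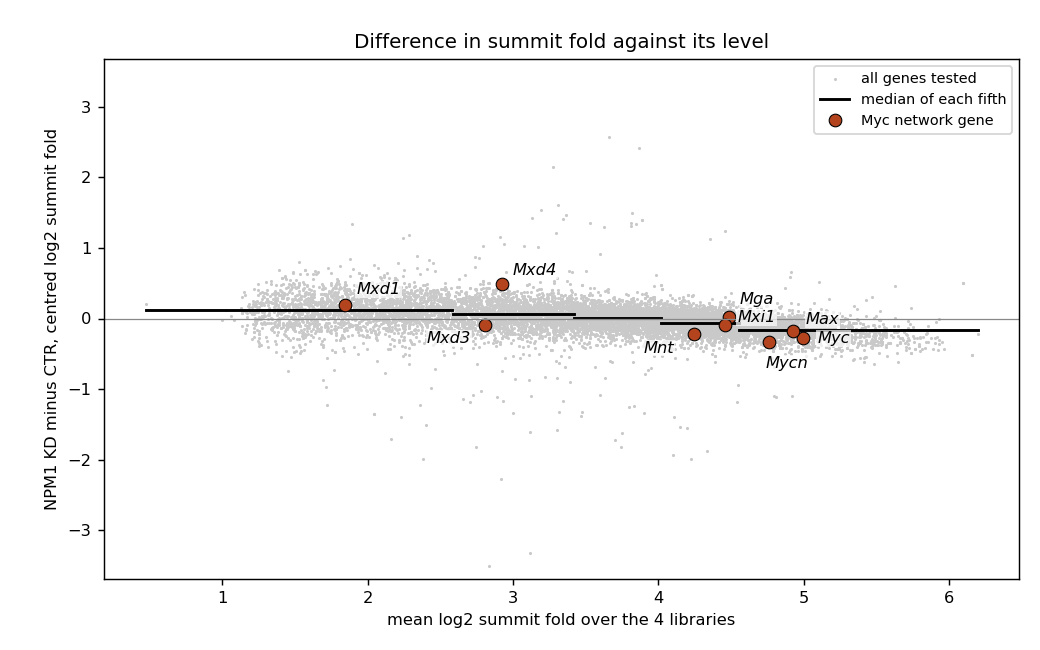
NPM1 KD minus CTR in centred log2 summit fold against the mean log2 summit fold over the 4 libraries, for 10895 protein-coding genes (grey points) with the 9 marked Myc network genes in red and the median of each quintile of level as black lines. The medians step down from 0.12 in the lowest quintile to -0.16 in the highest, and Mycn and Mxd4 lie farthest from the median of their quintile among the 9 genes.

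None of the 9 genes passed the test across all genes. limma on log2(covered bp + 1000) called 1 gene of 11863 (0.00843%, adjusted p under 0.05, and 0 genes with the replicate number as a block) and 0 of the 9, with adjusted p between 0.372 and 1.00 for the Myc network genes and 0 of them under an unadjusted p of 0.05, as against 1806 of all genes. limma on the centred log2 summit fold called 12 genes of 10895 (0.11%) and again 0 of the 9, with adjusted p between 0.610 and 0.970. Before adjustment 2 were under 0.05, against 882 of all genes. Mxd4 had a difference of 0.49 ± 0.13 (SE, limma, adjusted p = 0.610) and ranked 96 among all genes by its unadjusted p. Mycn had -0.34 ± 0.13 (SE, limma, adjusted p = 0.610). On simulated data this test recovered 89 of 200 genes changed by 1 log2 unit in summit fold and 2 of 200 changed by 0.5. The simulation shuffled the spreads between genes and drew the libraries independently, so the real data may differ.

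Other genes of the pathway were followed in 3 lists, of cofactors, turnover factors and targets. Of these 32 genes 30 were tested in summit fold, and 0 passed limma in either quantity. With an unadjusted p under 0.05 (limma) there were 3 in summit fold, against 882 of 10895 among all genes tested. In covered length there was 1, against 1806 of 11863. Of the 12 cofactors and related partners, 11 were tested, and in summit fold 2 had both NPM1 KD libraries above both CTR libraries, 1 below and 8 overlapped, against 18.2% above and 22.2% below over all genes tested, with a median difference of -0.01. The highest was Mlx, which encodes a partner of the MondoA family, with folds of 2.41, 2.197, 3.40 and 2.43 in CTR 1, CTR 2, NPM1 KD 1 and NPM1 KD 2. The lowest was Mlxip, which encodes MondoA, with 16.2, 14.5, 14.9 and 11.8. In covered length 4 of the 11 were above and 0 below, against 46.7% and 2.89% of all genes tested.

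All 8 turnover genes were tested. In summit fold 1 was above, Usp28, which encodes a deubiquitinase that stabilizes MYC, at 9.54, 9.02, 10.4 and 9.08 in the same order of libraries. 4 were below, and the lowest by mean difference was Usp7, at 44.4, 42.4, 40.0 and 26.7. Over all genes tested 18.2% were above and 22.2% below. In covered length 3 of the 8 turnover genes were above and 0 below, where 46.7% and 2.89% of all genes were. The median differences were -0.16 for summit fold and 0.05 for covered length.

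Of 12 MYC target genes, 11 carried peaks, with Ccnd2 at 0 in all libraries. In summit fold 8 of the 11 had both NPM1 KD libraries below both CTR libraries and 0 above, against 22.2% below and 18.2% above over all genes tested, with a median difference of -0.17 against -0.02 over all genes. The lowest was Odc1, which encodes the rate-limiting enzyme of polyamine synthesis, at 41.8 and 33.5 in CTR 1 and 2 and 32.3 and 23.9 in NPM1 KD 1 and 2 (limma -0.36 ± 0.15, SE, adjusted p = 0.610). Cad, the enzyme of pyrimidine synthesis, had the smallest difference, at 14.4, 12.4, 14.8 and 10.0. Of the 11 targets, 7 lay in the quintile of highest fold, and all 7 were below, against 49.5% of the genes of that quintile. In covered length 2 targets were above and 2 below, against 46.7% and 2.89% of all genes tested. The neuronal markers, which are no part of the pathway, showed a like count, with 5 of 6 below in summit fold and 0 above (median -0.25), and nothing particular to the targets is read from theirs.

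**Figure D5:**
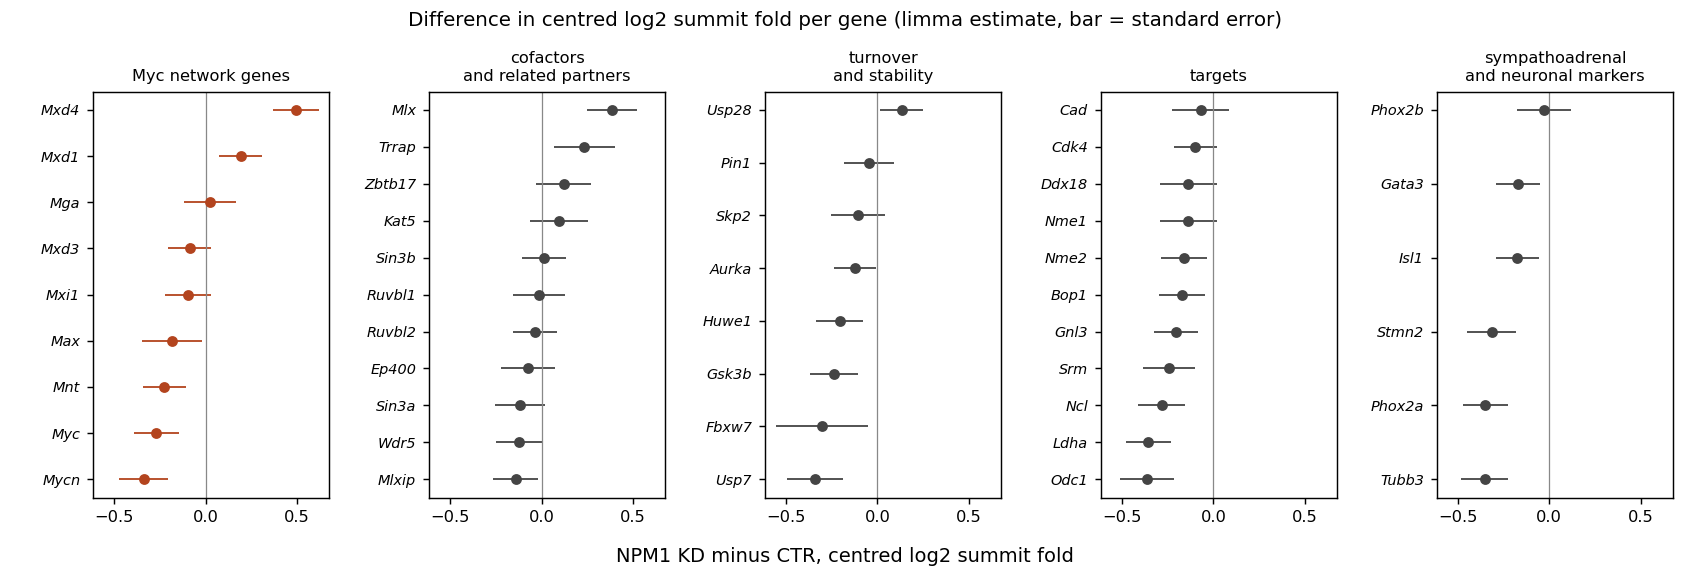
limma estimate of NPM1 KD minus CTR in centred log2 summit fold, with its standard error as the bar, for the 9 marked Myc network genes (red) and for the cofactors, turnover genes, targets and sympathoadrenal and neuronal markers with a summit in every library. All 11 targets and all 6 markers lie below 0, and no gene shown passed the test across all genes.

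The profiles most like those of Myc and Mycn were sought over the 4 libraries among 10895 genes, as the smallest root mean square difference in centred log2 summit fold. For Myc they were Rack1 (0.02), Vdac1 (0.04) and Enoph1 (0.04), and for Mycn they were Chpf2 (0.01), Klhl29 (0.03) and Ezh2 (0.04). Rack1, for example, had summit folds of 35.8, 36.3, 29.6 and 27.9 where Myc had 35.5, 36.0, 29.3 and 27.4. Mycl had no summit to compare.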

How the data were processed

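H3K79me2 ChIP-seq of N2a cells gave 4 libraries, 2 CTR and 2 NPM1 KD, and 2 pooled inputs without lists of their own entered no comparison. The groups came from the treatment labels. Per the methods and labels, the authors aligned paired-end reads to mm10 with Bowtie2 2.3.4.1 and called narrow and broad peaks per library with MACS2, given as 2.2.6 in the submitters' processing notes. The use of the input as background is not given in the sources used here. In the deposited lists the score equals the −log10 q multiplied by 10 and truncated. The fold column of the authors is a ratio of pileup to background. For narrow peaks it is taken at the summit, with the same small constant added to both, and for broad peaks as an average. Deposited −log10 p and −log10 q are MACS2 output, with q adjusted library by library.

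Whole summit pileups and the background were recovered from fold and p. The background took 1 value per library for 97.5% (CTR 2) to 99.7% (NPM1 KD 2) of narrow peaks, so their folds hold no local correction. The 95% exact Poisson intervals come from the recovered pileups. They cover counting error only, and the number of reads per library is unknown. Peaks were intersected with gene windows in Python 3.11.15 (numpy 2.4.6, pandas 2.3.3, scipy 1.17.1, matplotlib 3.10.9). limma 3.58.1 in R 4.3.3 was run over all protein-coding genes with a broad peak in at least 1 library (log2 of covered bp plus a pseudocount of 1000 bp), and over those with a narrow summit in all 4 libraries (log2 summit fold, centred), with Benjamini-Hochberg adjustment and a threshold of 0.05. The script was tested on simulated data. All 10 genes are named. 1 marker gene is not reported here. Genes of the pathway lists are named when highest or lowest of their list, and 3 genes of likest profile for Myc and Mycn. The members and lists were chosen with earlier results of these data known, and the quintiles of level were added after seeing the data. Replicate numbers share 2 pairs only. Same-numbered libraries deviated together (correlation 0.259 for covered length and 0.307 for summit fold, across genes), and the methods tie a replicate to a passage and transfection batch. No 2 libraries shared more than 2 identical narrow intervals.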

Additional observations from a re-analysis of the deposited data

How the results depend on the processing

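No member passed limma under any alternative. The 9 marked genes had 108 adjusted p values under the alternatives in covered length, from 0.243 up, and 117 in summit fold, from 0.242 up. On simulated data the test called 2 of 200 genes changed by 0.5 log2 units in summit fold, and read depth is unknown.

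The number of genes limma called in covered length, 1, was 0 with narrow lists, 0 with lists cut to equal size and 0 with a peak required in all 4 libraries, and rose to 21 with −log10 q of at least 5 and to 5 with all GENCODE genes. It was 0 in each fit without 1 library. In summit fold the 12 calls became 47 with the highest broad fold, 20 with all GENCODE genes, 3 with the first 5 kb and the 3 kb upstream alone, 6 without centring and 26 to 50 without 1 library, where the lone library is assumed to vary like the others. With the replicate number as a block, limma called 0 genes in covered length and 13 in summit fold, and the block changed no call of a member. The block rests on 2 pairs.

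Members with both NPM1 KD libraries above in covered length, 5, became 3 with −log10 q of at least 5 (Myc, Mycn and Mxd4) and 2 over the gene body alone (Mxd1 and Mxd4), and 5 to 9 without 1 library (8 without CTR 1, 9 without NPM1 KD 2). Members below, 0, became 0 to 1 without 1 library, with Mxd3 below when NPM1 KD 1 was left out. In summit fold, the members above, 2, became 1 without centring, as Mxd1 then overlapped, and 2 to 3 without 1 library, and the members below, 4, became 4 to 6. Leaving out 1 library cannot lower any of these counts, since groups that do not overlap stay apart with fewer libraries. The counts without 1 library are therefore no check of the order. The median change of the members in covered length, 0.03, was 0.0106 to 0.0743 without 1 library. The median change in summit fold, -0.10, turned to 0.0433 with the highest broad fold and was -0.17 to -0.07 without 1 library. Among members whose groups did not overlap, Mga in covered share turned to -0.659 percentage points with −log10 q of at least 5. Mxd3 in log2 summit fold turned to 0.0828 with the highest broad fold. Differences with overlapping groups changed sign as well. Examples are Max (0.0337) and Mxi1 (0.0937) in log2 summit fold with the highest broad fold, and Mnt (-2.48) and Mxd3 (-4.545 percentage points) in covered share with narrow lists. The cause was not tested. Of 72 recomputed covered shares 62 stayed within the spread between libraries, and of 81 summit folds 71 did. Both counts include the values without 1 library, which stay within that spread by construction. Only the other settings could have left it.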

Other observations

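Pvt1, the long noncoding RNA gene downstream of Myc (ENSMUSG00000097039.8, chr15:62037986-62378096, plus strand), is not protein-coding and entered no test. Its window was covered by broad peaks over 59.6% and 60.1% in CTR 1 and 2 and 61.6% and 60.9% in NPM1 KD 1 and 2, and its summit fold was 15.8, 15.2, 13.5 and 12.1. Like Myc, it had both NPM1 KD libraries above both CTR libraries in covered share and below them in summit fold. The 2 windows lie on the same chromosome and their libraries are the same, so this is a second description and not a separate test.

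Bases under broad peaks were compared between libraries gene by gene. In Max, 99.7% of the bases covered in any library were covered in all 4, in Mycn 96.8%, in Mxi1 94.3% and in Myc 92.2%. In Mxd4 the value was 83.9%, in Mga 74.1%, in Mxd3 73.1% and in Mxd1 25.6%. Bases covered in both NPM1 KD libraries and in neither CTR library numbered 1170 in Mga, 587 in Mxd1 and 479 in Mxd4, and 0 to 285 in the other 6 marked genes. Bases covered in both CTR libraries alone numbered 716 in Mga and 31 in Mnt, and 0 in the other 7.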
